A study of Homo sapiens with 4 samples.

Results

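Aldehyde dehydrogenases oxidize reactive aldehydes to carboxylic acids with NAD+ or NADP+. The family is used in breast cancer to mark stem-like cells, since a fluorescent substrate of these enzymes sorts out cells that start tumors more readily. The ALDH1A enzymes turn retinal into retinoic acid, the ligand of the nuclear receptors RAR and RXR, and ALDH1A3 is a main source of the sorted activity in many breast tumors. The other branches clear acetaldehyde, fatty and lipid-derived aldehydes, or complete steps of amino acid and carnitine metabolism. Transcripts of 10 genes were followed here: ALDH1A1, ALDH1A2, ALDH1A3, ALDH1B1, ALDH2, ALDH3A1, ALDH3A2, ALDH3B1, ALDH4A1 and ALDH9A1. They were listed by name as stem-like marker enzymes and their relatives, and all 10 were found among the 60279 genes of the count tables. Of the 10, 7 reached a mean level of 1 CPM (reads of the gene per 1000000 gene reads) over the libraries and were compared between conditions, as were 14269 genes in all. ALDH1A1, ALDH1A2 and ALDH2 were below that level.

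The cells were SUM159, an established line of triple-negative breast cancer. The 4 libraries came from cells left untreated, treated with palbociclib, treated with indisulam, or treated with both (the combination), with 1 library each. Palbociclib inhibits CDK4 and CDK6, and indisulam brings the splicing factor RBM39 to a ubiquitin ligase for degradation. The sample labels put palbociclib at 0.5 µM and indisulam at 2 µM over 10 days, whereas the text of the series has 2 µM and 3 µM over 16 h and mentions technical duplicates. The study ran both treatments, that of the labels for its senescence gene lists and that of the series text for splicing. The processing notes name TopHat2, and its methods name another aligner for the splicing reads. The groups follow the labels, and the sources disagree on dose and time. Each group has 1 library of 1 line, so no difference below has a replicate check and no p-value was computed. Brackets hold 95% intervals from counting error alone. The combination was also set against the sum of the log2 ratios of either drug, and the distance from that sum is called the departure from additivity. Its spread over genes gives a noise ceiling, a rough measure of the usual spread of a log2 ratio between libraries. The noise ceiling is not an upper limit for a single gene. A gene was called higher or lower where it differed by at least 2-fold and the interval left out a ratio of 1. In bulk RNA, fewer expressing cells and less RNA per cell cannot be told apart.

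The libraries held 12555908 to 16712174 gene reads, so that 3 reads, the floor used here, stood for 0.180 to 0.239 CPM. Mitochondrially encoded genes took 4.90% to 7.33% of the reads. All 4 genes expected in mesenchymal-like SUM159 cells (VIM, CD44, AXL and FN1) were well above the floor, with summed levels of 16147 to 23889 CPM. Of 5 genes expected to be absent or low, 3 (ESR1, PGR and EPCAM) were under a mean of 1 CPM and CDH1 was close to it, but GATA3 had 5.52 to 13.0 CPM. Among markers of other cells, CD3E and TTR were at 0 in every library. PTPRC had 11.1 to 17.5 CPM and PECAM1 had 40.9 CPM with palbociclib against 15.2 to 20.4 CPM in the other libraries. CDH5, another endothelial marker, was highest with palbociclib too, on 5, 23, 0 and 0 reads in the untreated, palbociclib, indisulam and combination libraries, and VWF had 4 to 17 reads. The part of these genes in the results was not tested.

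ALDH1A3 (ENSG00000184254, chromosome 15, 100877714 to 100916626, plus strand, GRCh38) rose in each treated library and most in the combination. The untreated library held 62 of its reads (4.94 CPM, 3.79 to 6.33), the palbociclib library 215 (16.9 CPM, 14.8 to 19.4), the indisulam library 399 (23.9 CPM, 21.6 to 26.3) and the combination library 837 (58.3 CPM, 54.4 to 62.4). The counting intervals of the 4 libraries did not overlap, and the order was untreated, palbociclib, indisulam, combination. ALDH1A3 was 3.40-fold higher than untreated with palbociclib, at a log2 ratio of scaled counts of 1.76 (1.36 to 2.17). With indisulam it was 4.78-fold higher, at 2.26 (1.87 to 2.64). The combination reached 11.7-fold, at 3.54 (3.17 to 3.91). In the last of these comparisons it ranked 170 from the top among the 14269 genes.

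ALDH1A3 was also higher in the combination than with either drug alone. The log2 ratio was 1.78 (1.56 to 1.99) against palbociclib and 1.29 (1.11 to 1.46) against indisulam, which were 3.43-fold and 2.44-fold. It was thus called higher in all 5 comparisons. The effect of palbociclib can be read without indisulam (palbociclib against untreated) and beside it (combination against indisulam), from separate pairs of libraries. ALDH1A3 was the 1 aldehyde dehydrogenase of the 10 called the same way in both, as were 462 of all genes (3.24%). The combination fell short of the sum of the single drugs on the log2 scale by a departure of -0.48 (-0.92 to -0.04). That departure was 1.29 times the robust spread of departures over genes of 20 to 100 CPM, which was 0.37. ALDH1A3 is on a senescence gene list that the study used, and its high rank in these libraries was known when the 10 genes were chosen.

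**Figure D1:**
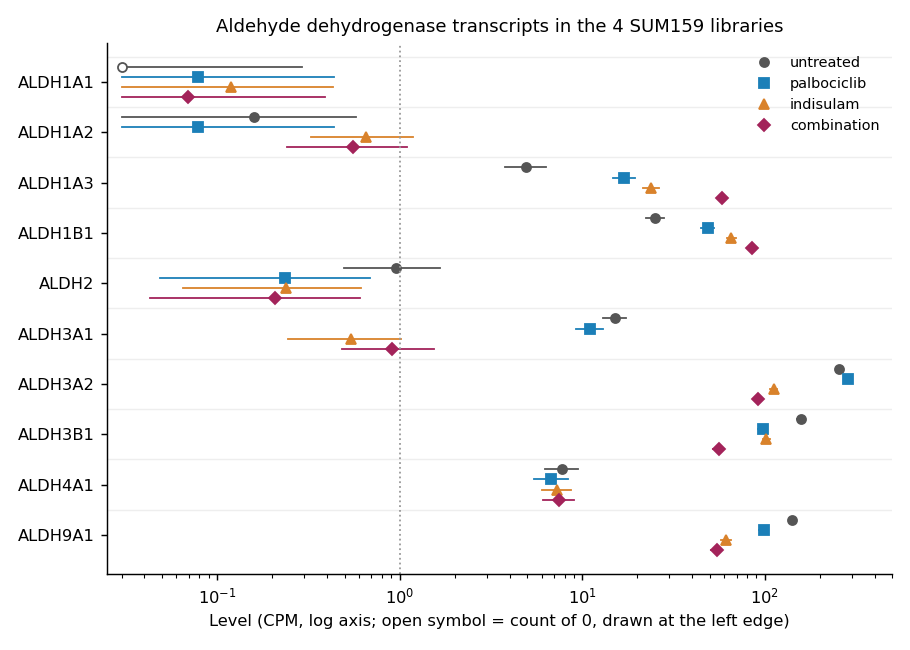
Level of each of the 10 aldehyde dehydrogenases in the 4 libraries in CPM, on a log axis, with 95% Poisson intervals as bars and a dotted line at 1 CPM. ALDH1A3 and ALDH1B1 step up from untreated to combination, ALDH3A1 is under 1 CPM in both libraries with indisulam, and ALDH4A1 stays between 6.78 and 7.73 CPM.

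The promoters of ALDH1A3, ALDH1B1 and ALDH9A1 are shown because the first of these genes rose in every treated library, the second moved up beside it and the third moved down. They are the 250 bases before the annotated start in RefSeq on GRCh38.p14, printed 5′ to 3′ on the strand of the gene. Capitals mark GC boxes (GGGCGG on either strand, so also CCGCCC) and CCAAT boxes (CCAAT, or ATTGG on the other strand).
ALDH1A3, chr15:100879581-100879830, plus strand: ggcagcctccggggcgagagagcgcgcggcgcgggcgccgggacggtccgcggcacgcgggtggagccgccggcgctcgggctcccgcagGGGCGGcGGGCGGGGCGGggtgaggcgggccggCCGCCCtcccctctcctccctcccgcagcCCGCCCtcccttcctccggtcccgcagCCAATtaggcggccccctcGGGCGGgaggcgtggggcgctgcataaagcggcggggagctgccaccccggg
ALDH1B1, chr9:38392452-38392701, plus strand: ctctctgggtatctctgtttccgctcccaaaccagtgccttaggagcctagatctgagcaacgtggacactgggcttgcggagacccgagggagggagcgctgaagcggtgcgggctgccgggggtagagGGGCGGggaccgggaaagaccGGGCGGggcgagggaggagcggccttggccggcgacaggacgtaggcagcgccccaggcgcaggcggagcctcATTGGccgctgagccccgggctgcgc
ALDH9A1, chr1:165698563-165698812, minus strand: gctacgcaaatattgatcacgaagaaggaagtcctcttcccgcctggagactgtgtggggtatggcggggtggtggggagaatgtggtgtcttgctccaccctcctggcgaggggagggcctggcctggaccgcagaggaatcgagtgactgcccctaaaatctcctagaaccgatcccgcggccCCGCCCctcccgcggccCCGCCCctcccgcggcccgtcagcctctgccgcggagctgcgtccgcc

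The ALDH1A3 promoter was 82.4% G and C, against 70.4% for ALDH1B1, 67.2% for ALDH9A1 and a median of 58% over all promoters. It held 6 GC boxes, a pair of which overlap, and a CCAAT box that begins 71 bases before the start. The ALDH1B1 promoter held 2 GC boxes and a CCAAT box on the minus strand, and the ALDH9A1 promoter 2 GC boxes on the minus strand. Of the 35116 promoters of this length, 42.6% had a GC box and 32.0% a CCAAT box. Promoters of 8 of the 10 genes were matched, 12 in all. A GC box was in 7 of the 12 promoters, each of a different gene. None of the 12 held the AP-1 letters TGACTCA (4.20% of all promoters), the letters TATAAA (10.7%) or the core of the antioxidant response element TGACNNNGC (10.9%), searched on both strands. The half-site of nuclear receptors AGGTCA (12.1%) was in a promoter of ALDH4A1 and the E-box CACGTG (6.34%) in one of ALDH3A2. A match gives letters in a window and not a bound site.

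The other ALDH1A enzymes had 0 to 11 reads per library. ALDH1A1 (chromosome 9, 72900671 to 73080442), the ALDH1 enzyme stained for in breast tumors, had 0 reads untreated, 1 under palbociclib, 2 under indisulam and 1 under both drugs. Each count was under the floor, so a difference could not be detected at this depth. ALDH1A2 (chromosome 15, 57953424 to 58497866), the main retinoic acid source of the embryo, had 2, 1, 11 and 8 reads in the same order. Its ratio to untreated was 4.13 (0.902 to 38.4) with indisulam and 3.50 (0.698 to 33.8) with both drugs by the exact conditional interval, and both intervals include 1. ALDH1A2 shares 354 exonic bases with AQP9 on the opposite strand, which had 105 to 510 reads. ALDH1A3 therefore supplied 96.9% of the ALDH1A reads in the untreated library (89.2 to 99.6, Clopper-Pearson), 99.1% with palbociclib, 96.8% with indisulam and 98.9% with both drugs (98.0 to 99.5).

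ALDH1B1 (ENSG00000137124, chromosome 9, 38392702 to 38398661, plus strand), a mitochondrial enzyme that oxidizes acetaldehyde and retinal, rose beside ALDH1A3 in both libraries with indisulam. Its levels were 25.1 CPM untreated, 48.6 CPM with palbociclib, 65.5 CPM with indisulam and 84.6 CPM with both drugs, from 315 to 1215 reads. The order of the libraries was that of ALDH1A3, over a narrower range. It was called higher than untreated with indisulam, by 1.38 (1.20 to 1.56), and under both drugs, by 1.75 (1.57 to 1.93). With palbociclib it was 0.95 (0.76 to 1.15), just under 2-fold and not called. Against the single drugs the combination stood at 0.80 (0.66 to 0.94) and 0.37 (0.25 to 0.49), neither called. Its departure from additivity was -0.58 (-0.81 to -0.36), below the sum of the single drugs as for ALDH1A3. The robust spread of departures over genes of 20 to 100 CPM was 0.37.

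ALDH2 (chromosome 12, 111766887 to 111817532), the mitochondrial acetaldehyde dehydrogenase of the liver, was under 1 CPM in every library and close to the floor in the treated ones. Its reads numbered 12 untreated, 3 under palbociclib, 4 under indisulam and 3 under both drugs. The treated libraries held fewer reads than the untreated one, at ratios of 0.247 (0.0448 to 0.916), 0.250 (0.0589 to 0.826) and 0.219 (0.0396 to 0.810) by the exact interval. ALDH2 was too low for the call rule, and ALDH1B1 had more reads than ALDH2 in every library.

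**Figure D2:**
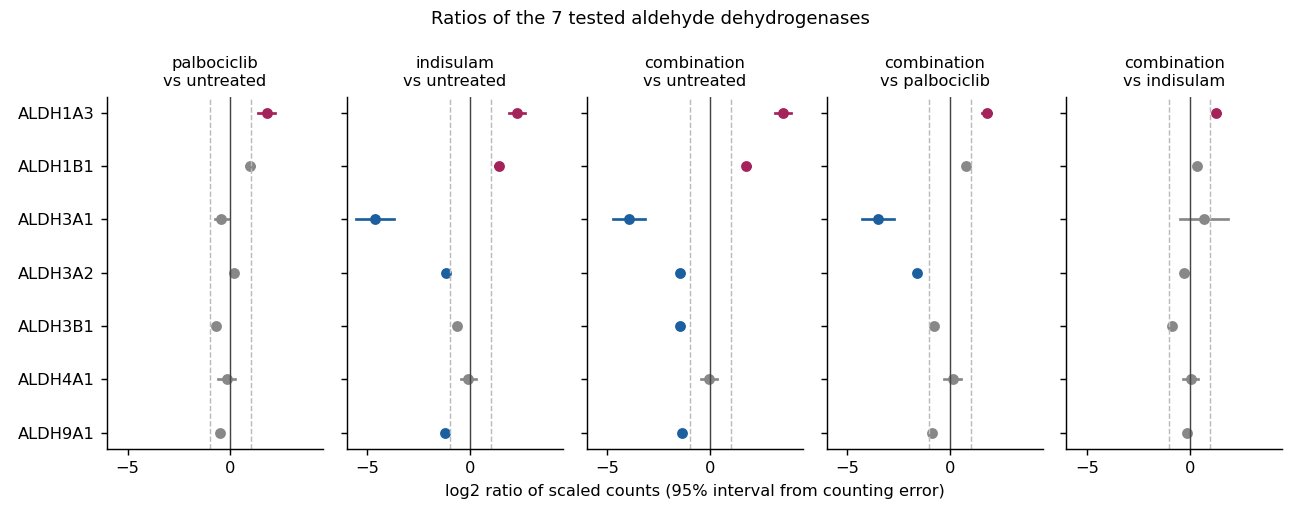
Log2 ratio of scaled counts of the 7 compared aldehyde dehydrogenases in the 5 comparisons, with 95% counting intervals as bars and dashed lines at 2-fold; red points were called higher, blue points called lower and grey points not called. ALDH1A3 is red in all 5 panels, and ALDH3A1 and ALDH3A2 are blue in the 3 panels that set a library with indisulam against one without it.

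The ALDH3A genes moved the other way with indisulam. ALDH3A1 (ENSG00000108602, chromosome 17, 19737984 to 19748943, minus strand), a cytosolic enzyme of the cornea and stomach that oxidizes aromatic and medium-chain aldehydes, had 190 reads in the untreated library (15.1 CPM) and 140 with palbociclib (11.0 CPM). With indisulam 9 reads were left (0.539 CPM) and in the combination 13 (0.905 CPM). The libraries thus fell into a pair with indisulam and a pair without it, and the counting intervals of the pairs did not overlap. ALDH3A1 was 24.9-fold lower with indisulam than untreated, at -4.64 (-5.55 to -3.73), and only 7 of the 14269 genes had a lower ratio. It was 15.6-fold lower in the combination than untreated, at -3.96 (-4.74 to -3.18), and 11.4-fold lower than with palbociclib, at -3.51 (-4.30 to -2.72).

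Neither estimate of palbociclib called ALDH3A1. Against untreated it stood at -0.45 (-0.77 to -0.14), 1.23 times the noise ceiling for genes of 5 to 20 CPM. Between combination and indisulam it was 0.68 (-0.48 to 1.84), which rests on 13 and 9 reads. The departure of 1.13 (-0.07 to 2.34) has an interval that includes 0, and at this depth no departure could be seen.

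ALDH3A2 (ENSG00000072210, chromosome 17, 19648136 to 19685760, plus strand) encodes the fatty aldehyde dehydrogenase of the endoplasmic reticulum, whose loss causes Sjögren-Larsson syndrome. Untreated cells gave 3194 reads (254 CPM), palbociclib 3620 (285 CPM), indisulam 1865 (112 CPM) and the combination 1325 (92.3 CPM). The libraries split by indisulam as for ALDH3A1, with a smaller step. It was called lower with indisulam than untreated, at -1.19 (-1.27 to -1.11). The combination was called lower than both libraries without indisulam, at -1.46 (-1.55 to -1.37) against untreated and -1.63 (-1.72 to -1.54) against palbociclib. With palbociclib alone ALDH3A2 differed from untreated by 0.17 (0.10 to 0.23), which was under the noise ceiling of 0.28 for genes of 100 CPM or more.

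ALDH3B1 and ALDH9A1 were lower as well, with different orders of the libraries. ALDH3B1 (ENSG00000006534, chromosome 11, 68008578 to 68029282), which oxidizes lipid-derived aldehydes at membranes, had 157 CPM untreated, 97.4 CPM with palbociclib, 102 CPM with indisulam and 56.0 CPM with both drugs. The single drugs lay close together for ALDH3B1, at -0.69 (-0.79 to -0.59) and -0.62 (-0.72 to -0.53), and neither was called. The combination was called lower at -1.49 (-1.61 to -1.37), with a departure of -0.17 (-0.33 to -0.02) from their sum. That departure was smaller than the robust spread of departures over genes of 100 CPM or more, which was 0.40. ALDH9A1 (ENSG00000143149, chromosome 1, 165662216 to 165698562), which works in carnitine synthesis, had 142 CPM untreated and 98.6 CPM, 61.1 CPM and 54.5 CPM under palbociclib, indisulam and both drugs. Indisulam gave -1.21 (-1.32 to -1.10) and both drugs gave -1.38 (-1.50 to -1.26), each called lower. With palbociclib alone it stood at -0.52 (-0.63 to -0.42) and was not called.

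ALDH4A1 (ENSG00000159423, chromosome 1, 18871430 to 18902724), the mitochondrial enzyme that completes proline breakdown, was not called in any of the 5 comparisons. Its 97, 86, 121 and 107 reads in the untreated, palbociclib, indisulam and combination libraries were 6.78 to 7.73 CPM. Its log2 ratios lay between -0.19 and 0.14, and each counting interval included 0. The widest interval, for palbociclib against untreated, ran from -0.60 to 0.23, so a 2-fold difference lay outside counting error.

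Of the 7 genes compared, 1 was called with palbociclib against untreated, and it was higher (ALDH1A3). Over all genes 10.7% were called in that comparison, 5.85% higher and 4.89% lower. With indisulam against untreated 5 of the 7 were called, 2 higher (ALDH1A3 and ALDH1B1) and 3 lower (ALDH3A1, ALDH3A2 and ALDH9A1), against a background of 15.1%, 8.39% higher and 6.69% lower. The combination against untreated called 6 of the 7, with 2 higher and 4 lower (the same 3 and ALDH3B1), where the background was 23.5%, 12.9% higher and 10.5% lower.

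Against palbociclib the combination called 3, with ALDH1A3 higher and ALDH3A1 and ALDH3A2 lower (background 16.9%, 9.56% higher and 7.38% lower). Against indisulam it called ALDH1A3 alone (background 8.19%, 5.04% higher and 3.15% lower). No departure from additivity was called among the 7, compared with 7.77% of all genes. Both estimates of the indisulam effect called ALDH1A3 higher and ALDH3A1 and ALDH3A2 lower, as they did the same way for 1216 of all genes (8.52%).

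The median log2 ratio of the 7 genes to untreated was -0.19 with palbociclib, -0.62 with indisulam and -1.38 with both drugs, against -0.02, 0.06 and 0.05 over all genes compared. It was -0.80 for the combination against palbociclib and 0.04 against indisulam, where all genes had 0.07 and -0.01. The comparisons share libraries and are not independent. The sum over the 10 genes was 607 CPM untreated, 565 CPM with palbociclib, 373 CPM with indisulam and 355 CPM with both drugs. ALDH1A3 made up 0.813% of those reads untreated, 3.00% with palbociclib, 6.40% with indisulam and 16.4% with both drugs, and ALDH1B1 went from 4.13% to 23.8%. ALDH3A2 went from 41.9% untreated to 26.0% in the combination. The 10 genes thus had a smaller total and a larger ALDH1 share in the libraries with indisulam.

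**Figure D3:**
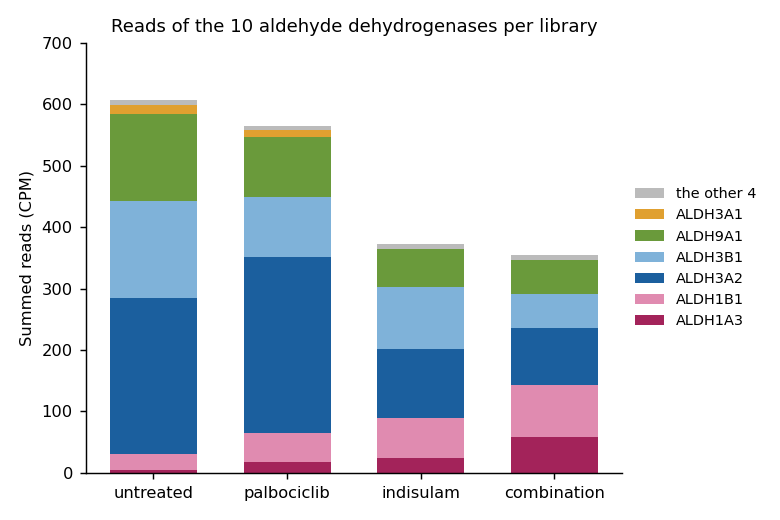
Summed reads of the 10 aldehyde dehydrogenases in CPM for each library, stacked by gene, with ALDH1A1, ALDH1A2, ALDH2 and ALDH4A1 drawn together in grey. The stack is 607 CPM high untreated and 355 CPM high in the combination, while the ALDH1A3 and ALDH1B1 segments at its base grow.

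Levels can be ordered between genes only per length. By CPM per kilobase of all annotated exons, the untreated library had ALDH9A1 first at 47.1, then ALDH3B1 at 23.7, ALDH3A2 at 16.6, ALDH1B1 at 8.05, ALDH3A1 at 3.90, ALDH4A1 at 2.13 and ALDH1A3 at 0.926. In the combination ALDH1B1 led at 27.1, followed by ALDH9A1 at 18.1 and ALDH1A3 at 10.9. Adjacent genes of the first 7 had intervals that did not overlap in the untreated library or the combination. ALDH1B1 and ALDH3B1 overlapped with palbociclib, as did ALDH1A3 and ALDH3A1, and ALDH1B1 and ALDH9A1 overlapped with indisulam. The order depends on the length used. By the length of the MANE Select transcript, ALDH3A2 was first untreated at 68.7, ALDH1B1 stayed first in the combination at 27.9, and ALDH1A3 ranked 5 there at 16.8.

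**Figure D4:**
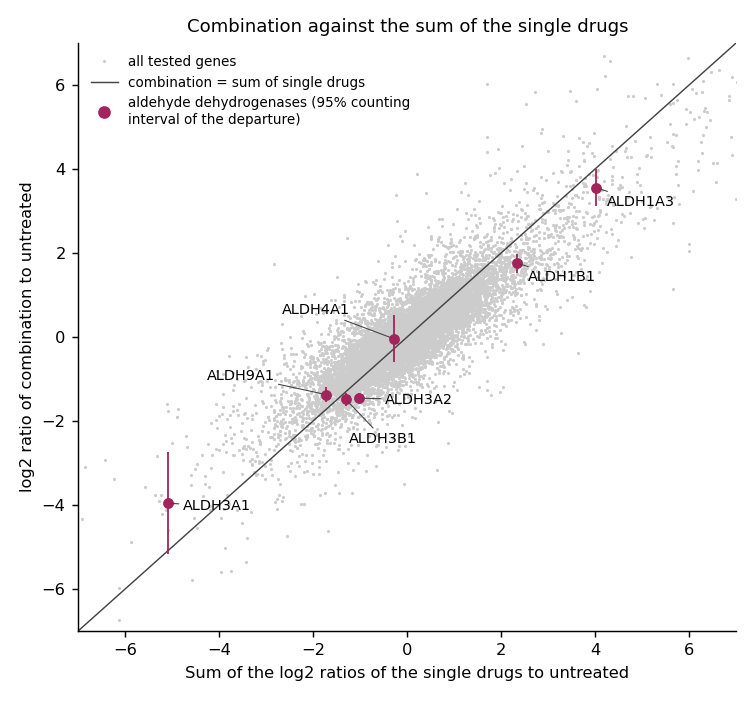
Log2 ratio of the combination to untreated against the summed log2 ratios of palbociclib and indisulam, for all compared genes (grey, axes end at 7) and the 7 aldehyde dehydrogenases (red, bars are 95% counting intervals of the departure). ALDH1A3 and ALDH1B1 lie below the diagonal, by 0.48 and 0.58, and ALDH3A1 lies above it with an interval that reaches the diagonal.

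ALDH3A1 and ALDH3A2 are neighbors on chromosome 17, with starts 101 kb apart. The genes around them, within 250 kb, were read after the values of these genes were known. SLC47A2, an organic cation transporter gene on the minus strand (19678288 to 19718979), overlaps the end of ALDH3A2 and reaches toward ALDH3A1, and it shares no exonic bases with ALDH3A2. It had 69, 103, 2 and 6 reads in the untreated, palbociclib, indisulam and combination libraries. Its ratio to untreated was 0.0218 (0.00259 to 0.0817) with indisulam and 0.0760 (0.0270 to 0.174) with both drugs by the exact interval. The 3 genes were thus lower in both libraries with indisulam than in both without it. The next genes, ULK2 and AKAP10, were not called, at -0.02 (-0.22 to 0.17) and 0.03 (-0.13 to 0.19) for indisulam against untreated.

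The same reading around ALDH1A3 gave its antisense gene. ALDH1A3-AS1, on the opposite strand, had 23, 70, 63 and 135 reads in the untreated, palbociclib, indisulam and combination libraries. Its log2 ratio to untreated was 1.55 (0.88 to 2.22), 1.01 (0.34 to 1.69) and 2.32 (1.69 to 2.94), each called higher. The call with indisulam was lost under all 4 other scalings, with 0.94 to 0.998, and at a pseudocount of 5, with 0.92. The genes share 1715 exonic bases, 32.1% of the exonic length of ALDH1A3. The libraries were stranded, but whether counting used the strand is not given in the sources used here, so reads of this pair may not be told apart. LRRK1 and ASB7 beside them were not called in any comparison with untreated. The noncoding gene GCAWKR, whose start lies 27.9 kb before that of ALDH1A3, was called lower in each treated library, on 7 to 40 reads.

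**Figure D5:**
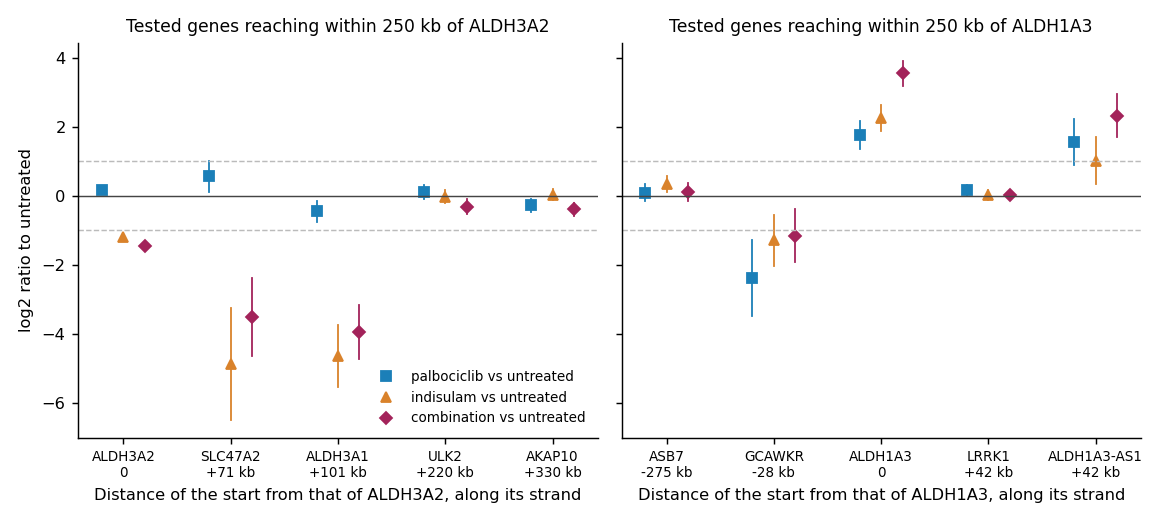
Log2 ratio to untreated of the compared genes that reach within 250 kb of ALDH3A2 (left) and ALDH1A3 (right), ordered by the distance of their starts, with 95% counting intervals as bars and dashed lines at 2-fold. SLC47A2 and ALDH3A1 drop with indisulam while ULK2 and AKAP10 stay within 2-fold, and of the neighbors of ALDH1A3 the antisense gene alone is called higher (with indisulam at 1.01, under 2-fold with other scalings).

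The rest of the superfamily was mixed. Of the other 9 aldehyde dehydrogenases 8 were compared, and the combination against untreated called 1 higher and 2 lower, where all genes had 12.9% higher and 10.5% lower. ALDH8A1, of tryptophan breakdown, had 2.63 CPM untreated, 2.36 CPM with palbociclib, 13.2 CPM with indisulam and 9.96 CPM with both drugs, and was called higher in each library with indisulam against its partner without it (2.29 and 2.04). ALDH7A1, of lysine breakdown, and ALDH6A1, of valine breakdown, were called lower in the combination against untreated, at -1.37 (-1.51 to -1.23) and -1.51 (-1.71 to -1.31). Palbociclib against untreated called ALDH1L1 lower and no gene higher, and indisulam against untreated called ALDH8A1 higher and ALDH7A1 lower (backgrounds 10.7% and 15.1%). The combination called ALDH1L1, ALDH1L2 and ALDH8A1 higher than palbociclib (background 16.9%) and ALDH1L2 and ALDH5A1 higher than indisulam (8.19%), with none lower. The call of ALDH1L2 against palbociclib was lost with TMM and median-of-ratios factors and at a pseudocount of 5, with 0.97 to 0.99. ALDH3B2 had 1 read in each library.

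The steps before ALDH1A3, retinol uptake and oxidation to retinal, were read from a list of 12 genes, of which 8 were compared. The combination called 2 higher than untreated and 2 lower, beside 23.5% of all genes called. RBP4, the retinol carrier, had 3.11 CPM untreated, 15.4 CPM with palbociclib, 8.62 CPM with indisulam and 22.8 CPM under both drugs, which put the combination at 2.85 (2.38 to 3.32). DHRS9, a retinol dehydrogenase, went from 1.19 to 8.50 CPM, at 2.76 (2.01 to 3.51). The retinol dehydrogenases RDH5, on 16 and 6 reads, and RDH13 were called lower, at -1.46 (-2.73 to -0.19) and -1.34 (-1.69 to -0.99). With palbociclib 1 of the 8 was called higher and 1 lower, and with indisulam 2 higher, beside 10.7% and 15.1% of all genes. These counts are small, and their difference from those shares was not tested.

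The steps after it showed few calls. Among 12 carriers, receptors and degrading enzymes of retinoic acid, 8 were compared and none was called with palbociclib or the combination against untreated (10.7% and 23.5% of all genes). RARB, a receptor that is itself induced by retinoic acid, was called higher with indisulam, from 24 to 71 reads, at 1.12 (0.47 to 1.78). In the combination it stood at 0.90 (0.21 to 1.58) against untreated, which was not called. Between combination and palbociclib RARB was called higher, at 1.65, the 1 gene called of these 8 (16.9% of all genes). Of 12 target genes of retinoic acid, which share members such as DHRS3, CYP26A1, RARB, CRABP2 and STRA6 with the lists above, 8 were compared. In the combination against untreated 1 was called higher and 1 lower, beside 23.5% of all genes called. The lower one was HOXA5, at -1.43 (-2.21 to -0.66). With palbociclib 1 was called lower and with indisulam 1 higher, beside 10.7% and 15.1% of all genes called. The median log2 ratio of the 8 to untreated was -0.53 with palbociclib, 0.03 with indisulam and -0.001 with both drugs. Over all genes compared it was -0.02, 0.06 and 0.05. For the combination the median of the 8 was 0.59 against palbociclib and -0.14 against indisulam, where all genes had 0.07 and -0.01.

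The enzymes that reduce aldehydes or oxidize alcohols gave lower calls only. Of a list of 16, 11 were compared, and none was called higher in any of the 5 comparisons. Against untreated 4 were called lower with palbociclib, 6 with indisulam and 6 with both drugs, where 4.89%, 6.69% and 10.5% of all genes were. The medians were -0.64, -1.07 and -1.57, against -0.02, 0.06 and 0.05 over all genes compared. ADH1B, an alcohol dehydrogenase, had 10.3 CPM untreated, 2.13 CPM with palbociclib, 5.39 CPM with indisulam and 1.25 CPM with both drugs. AKR1B10, which reduces retinal to retinol, was called lower than untreated in all treated libraries, at -1.36 with palbociclib, -1.30 with indisulam and -2.06 (-2.53 to -1.60) with both drugs. AKR1C1 and AKR1C2 were at -2.13 and -2.12 in the combination. They are near-identical copies, so the split of reads between them is uncertain.

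ALDH1A3 was next set beside other markers of stem-like breast cells. Of 16 such genes 11 were compared, and none was called with palbociclib or indisulam against untreated, beside 10.7% and 15.1% of all genes. In the combination 4 were called, beside 23.5%. CD24, ITGB1 and SOX9 were called higher, at 1.38 (1.27 to 1.48), 1.10 (1.06 to 1.13) and 1.71 (1.19 to 2.23), and POU5F1 lower, at -1.07 (-1.64 to -0.50), a call lost at a pseudocount of 5 (-0.997). CD24 is low in the stem-like breast cells defined by surface markers, and its levels were 71.6, 78.2, 112 and 186 CPM in the untreated, palbociclib, indisulam and combination libraries. PROM1, LGR5, SOX2 and NANOG were at or near 0.

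The genes whose pattern over the 4 libraries was most like that of ALDH1A3 were CCN3, GAS6-DT, PDZK1IP1, ANKRD1 and GDF6, out of 11375 genes with a mean of at least 5 CPM. Likeness was the root mean square difference of log2 scaled counts, each centered on its own mean, and was 0.12 to 0.15 for these 5. ANKRD1, the highest of them, had 23.0, 63.1, 114 and 277 CPM in the untreated, palbociclib, indisulam and combination libraries, and CCN3 had 4.38, 15.8, 24.0 and 46.5 CPM. With Pearson correlation in place of this measure the first 5 were TNFRSF12A, EPB41L5, CDC25A, ANTXR2 and RPS6KB1, and no gene was on both lists. Both lists rest on 4 libraries.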

How the data were processed

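RNA sequencing of 4 SUM159 libraries was analysed from the deposited counts of reads per Ensembl gene, which the authors had not normalized. The submitters' processing notes name TopHat2 2.1, HTSeq and GRCh38. The strand setting and annotation release are not given in the sources used here. Per the study, libraries were stranded and poly(A)-selected. Reads outside genes (9.61% to 10.1% of each table) were left out. The counts were divided by the library total and multiplied by the mean total (scaled counts), and 1 was added before log2 ratios. Genes with a mean of at least 1 CPM were compared. Intervals and the floor of 3 reads hold counting error alone, and without molecular identifiers duplicate reads of one molecule stay in the counts. The departure from additivity subtracts the log2 ratios of both single drugs from that of the combination, all to untreated. The robust spread of the departures, divided by the square root of 2, is the noise ceiling of one ratio. Symbols, positions and lengths are from GENCODE release 44, and promoters from RefSeq. The interval was tried on simulated data drawn with counting error alone, which cannot show how it does with variation between cultures.

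The 10 genes and the other lists were chosen with earlier results of these data known. The rule named all aldehyde dehydrogenases, up to 4 called genes per list with the largest ratio of combination to untreated, and the 5 genes most like ALDH1A3. Alternatives were TMM and upper-quartile factors (edgeR 4.0.16), median-of-ratios factors (DESeq2 1.42.0), totals without mitochondrial genes, pseudocounts of 0.5 and 5, other filters, a 1.5-fold threshold and an exact interval. Some genes of these lists are not reported here.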

Additional observations from a re-analysis of the deposited data

Results flagged for a closer look

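Palbociclib had opposite signs for ALDH3A2 without and with indisulam. Its log2 ratio to untreated was 0.17, and that of the combination to indisulam was -0.27, and both counting intervals excluded 0. Each ratio was smaller than the noise ceiling of 0.28 for genes of 100 CPM or more. The difference of -0.44 (-0.56 to -0.32) is the departure from additivity of ALDH3A2 and was 1.11 times the robust spread of departures at that level, and with 1 library per condition it was not tested against variation between cultures.

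Indisulam had opposite signs for the folate enzymes ALDH1L1 and ALDH1L2. ALDH1L1 stood at -0.70 between indisulam and untreated and at 1.504 between combination and palbociclib, a difference of 2.20 (1.21 to 3.20), on 53, 15, 43 and 50 reads in the untreated, palbociclib, indisulam and combination libraries. For ALDH1L2 the values were -0.87 and 1.07, a difference of 1.94 (0.95 to 2.93), on 31, 29, 22 and 70 reads. Neither difference was tested against variation between cultures.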

How the results depend on the processing

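The log2 ratios of the 7 compared aldehyde dehydrogenases, 42 with the departures, were recomputed in 329 alternatives, and 322 kept their call. The other 7 became calls, all at the 1.5-fold threshold. Each call of these 7 genes kept its direction and its call under every scaling, pseudocount and interval tried. Of 63 calls of other named genes, checked the same way after seeing the data, 58 were kept under all of these, none changed sign, and 5 were lost under at least 1, those of ALDH1A3-AS1 with indisulam and POU5F1 in the combination against untreated, and those of ALDH1L2, PECAM1 and GCAWKR between combination and palbociclib. No scaling moved the median of all compared genes by more than 0.10 on the log2 scale.

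With a 1.5-fold threshold the number of aldehyde dehydrogenases called was 3 for palbociclib against untreated (ALDH1B1 and ALDH3B1 added), 6 for the combination against palbociclib and 2 for the combination against indisulam. Over all genes this threshold called 3533 genes with palbociclib, 4485 with indisulam and 6059 with both drugs against untreated, 4683 and 3167 with both drugs against palbociclib and indisulam, and 2685 departures. At a mean of at least 5 CPM these numbers were 833, 1212, 2104, 1396, 544 and 582, of 11376 genes. Without the filter on low genes 1783 were called for the combination against indisulam, and 2 aldehyde dehydrogenases for palbociclib against untreated, since ALDH2 entered as lower on 12 and 3 reads. The length behind the order of levels was an alternative chosen after seeing the data. No library could be left out, as each condition had 1, and nothing here measures variation between cultures.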
